A study of Mus musculus with 17 samples.

Results

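The genes described here encode proteins that carry the IL-6 signal into the cell or act on those that do. Il6ra encodes the IL-6 receptor and Il6st the shared receptor subunit gp130. The others are the kinases Jak1, Jak2 and Tyk2 and the protein tyrosine phosphatases Ptpn1, Ptpn6 and Ptpn11. All were chosen by gene symbol alone. The array held 10 probe sets whose single annotated symbol was 1 of these 8 genes, of 12488 probe sets in all, with a pair of probe sets each for Il6st and Jak2. Of the 10, 9 passed the filter on low values and were tested among 9871 probe sets. The probe set of Ptpn11 did not pass, and the Jak2 probe set 96488_at passed only through 3 arrays of the 400 min groups. Being high at 400 min is what admitted it, so it is described by its values and left out of the counts and medians below. The closing section on processing counts it where stated, and its calls are not read.

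The cells were macrophages grown from mouse bone marrow. Irradiated mice had received fetal liver cells of SOCS3-/- (KO) or SOCS3+/+ (WT) embryos, and macrophages were then grown from marrow cells of donor origin. KO and WT cells were each taken unstimulated (0 min) or after 100 or 400 min of IL-6 at 10 ng/ml, and total RNA was measured on 17 arrays: 9 of KO cells, 3 per time, and 8 of WT cells, 2 at 0 min and 3 at each later time. All groups share the transplanted fetal liver origin. The deleted part of Socs3, the genotype of the recipients and the number of mice or embryos are not given in the labels, which number replicates without saying that they are separate cultures or mice. The p-values here reflect variation among these arrays alone, and that may be technical.

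IL-6 binds its receptor, and the complex engages gp130. JAK kinases held by gp130 phosphorylate each other, gp130 and the transcription factor STAT3. SOCS3, itself made in response to STAT3, binds gp130 and inhibits the kinases, and the phosphatase SHP2 (Ptpn11) docks at the same gp130 tyrosine and connects it to the RAS-MAPK pathway. PTP1B (Ptpn1) sits at the endoplasmic reticulum and acts on JAK2 and TYK2, and SHP1 (Ptpn6) is a phosphatase of blood cells.

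The promoters of the 3 genes on which the results below turn are shown because the pathway ends in a DNA-binding factor. They are the 250 bases before the RefSeq start of each gene, build GRCm38.p6, 5′ to 3′, with capitals marking the match to the looser motif TTNNNNGAA.
Il6st (chr13:112463820-112464069, + strand): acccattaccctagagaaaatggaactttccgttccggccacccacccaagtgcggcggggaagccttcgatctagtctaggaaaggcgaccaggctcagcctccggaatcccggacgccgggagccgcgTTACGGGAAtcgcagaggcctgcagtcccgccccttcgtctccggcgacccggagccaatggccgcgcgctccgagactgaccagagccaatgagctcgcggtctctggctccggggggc
Ptpn1 (chr2:167932077-167932326, + strand): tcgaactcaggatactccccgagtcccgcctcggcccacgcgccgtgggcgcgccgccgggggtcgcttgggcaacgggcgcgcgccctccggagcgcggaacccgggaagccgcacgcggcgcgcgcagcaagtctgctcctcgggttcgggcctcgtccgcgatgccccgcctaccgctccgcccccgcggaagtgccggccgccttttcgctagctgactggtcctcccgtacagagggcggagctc
Jak2 (chr19:29251553-29251802, + strand): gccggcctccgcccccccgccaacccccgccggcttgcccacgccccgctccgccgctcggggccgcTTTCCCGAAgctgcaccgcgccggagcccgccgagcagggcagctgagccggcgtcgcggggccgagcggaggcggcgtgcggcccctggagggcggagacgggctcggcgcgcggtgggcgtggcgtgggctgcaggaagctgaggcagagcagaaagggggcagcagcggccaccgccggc
The windows searched ran from 250 bases before to 50 after the start, on both strands, and all 8 genes had one. The letters TTCNNNGAA, the form a STAT dimer binds, were in 8.3% of all 32851 windows, and GAAA, any 2 bases, GAAA, the core of an interferon response element, in 3.44%. Neither occurred in a window of the 8 genes, which says only that these letters are not in these windows. The looser form, chosen after these sequences were seen, was in 38.0% of all windows. It occurred once in Il6st, 120 bases before the start, and once in Jak2, 183 bases before, and not in Ptpn1. Among the other members it occurred once each in Il6ra, Jak1 and Ptpn11, and not in Ptpn6 or Tyk2. The printed stretches held 26 CG pairs in Il6st, 41 in Ptpn1 and 37 in Jak2, against a median of 6 and a 95th percentile of 31 over all windows.

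Levels are quantile-normalized intensities, in arbitrary units that do not compare between probe sets. Differences are log2 differences of group means from limma fits over all 17 arrays, two-sided, with p-values adjusted over all probe sets tested and called at 0.05. Macrophage markers varied in level. By median the 14 ran from Marco (25.8, at the floor on 7 arrays and not tested) to Lgals3 (29113). Csf1r, the receptor for colony-stimulating factor 1, lay between 13433 and 32965 over all arrays, and the endosomal protein Cd68 between 9154 and 14009. Mertk lay between 25.3 and 243, and the lowest array had 242 for Mrc1 and 277 for Msr1. The summed level of the 14 macrophage markers was 148023 to 164168 on KO arrays at 400 min, against 153206 to 190629 on KO arrays at 0 min, and 154148 to 165545 on WT arrays at 400 min, against 172095 to 191042 on WT arrays at 0 min. No other cell type's list summed to more than 3258 on any array. Of these, 4 lists did not overlap between KO arrays at 400 and 0 min. The B cell list (8 of 9 markers on the array) summed to 1737 to 1875 at 400 min, against 2174 to 3258 at 0 min, and the fibroblast list (11 of 11) to 1955 to 2091 at 400 min, against 2134 to 2563 at 0 min. The dendritic cell list (5 of 8) summed to 1215 to 1675 at 400 min, against 982 to 1037 at 0 min, and the mast cell list (8 of 9) to 1509 to 1626 at 400 min, against 986 to 1210 at 0 min. Among the mast cell markers Tpsab1 was at the floor on 15 arrays and Cma1 on 0, and among the fibroblast markers Sparc was at the floor on 10 and Col1a2 on 0. Their part in the results was not tested. In bulk RNA, fewer cells of a type and less RNA per cell cannot be told apart. The 5 replicate 3 arrays stood apart. Their cell cycle list summed to 28698 to 52379, against 22426 to 29098 on the other 12 arrays, and their macrophage list to 144984 to 154148, against 158318 to 191042. Socs3 itself was between 16.5 and 179 on 8 KO arrays, while the array labelled KO 400 min replicate 3 had 903. WT arrays had 432 to 2552 after IL-6 and 54.9 and 115 at 0 min. KO and WT arrays also differed in sex-linked transcripts: Xist was 228 to 993 on KO arrays and 11.1 to 188 on WT arrays, and Eif2s3y, on the Y chromosome, was 7.67 to 112 on KO arrays and 245 to 790 on WT arrays. The contrast of genotypes cannot be told apart from that difference.

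After 400 min of IL-6, KO macrophages had more RNA for gp130 and for the phosphatase PTP1B: 2 of the other 8 tested member probe sets were called, Ptpn1 and 1 of the pair for Il6st, both higher. The share called among all probe sets was 1.82% in either direction and 1.2% higher. The median log2 difference was 0.66 over the 8 member probe sets and -0.04 over all tested. All 3 KO arrays at 400 min lay above all 3 at 0 min for 3 of the 8, as for 8.56% of all probe sets. An unadjusted p under 0.05 was reached by 4 of the 8 and by 12.2% of all probe sets. Neither call held with array medians scaled in place of quantile normalization (adjusted p = 0.0642 for Ptpn1 and 0.0672 for Il6st) or with only the groups compared in the fit (0.0873 and 0.168). In WT cells, with 2 unstimulated arrays, the differences at 400 min were 1.41 for Ptpn1 and 0.74 for Il6st 98349_at, neither called. The KO response minus the WT response was not called for either.

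No member was called by limma in any of the other 10 comparisons. The share called over all probe sets was 0.577% for KO at 100 against 0 min, 0.0101% for WT at 100 and at 400 against 0 min, 0.0405% for KO against WT at 100 min, 0.365% for KO against WT at 400 min and 0% in the other 5. At an unadjusted p under 0.05, 3 of the 8 passed for KO at 100 min (6.17% of all probe sets), 1 for KO at 400 against 100 min (9.03%), 1 for WT at 100 min (6.12%), 2 for WT at 400 min (6.26%) and 2 for WT at 400 against 100 min (6.3%). For KO against WT, 1 of the 8 passed at 0 min (5.99%), 1 at 100 min (4.89%) and 1 at 400 min (8.71%). For the KO response minus the WT response, 1 passed at 100 min (3.66%) and 1 at 400 min (5.38%). Both time comparisons of a genotype share its unstimulated arrays.

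**Figure D1:**
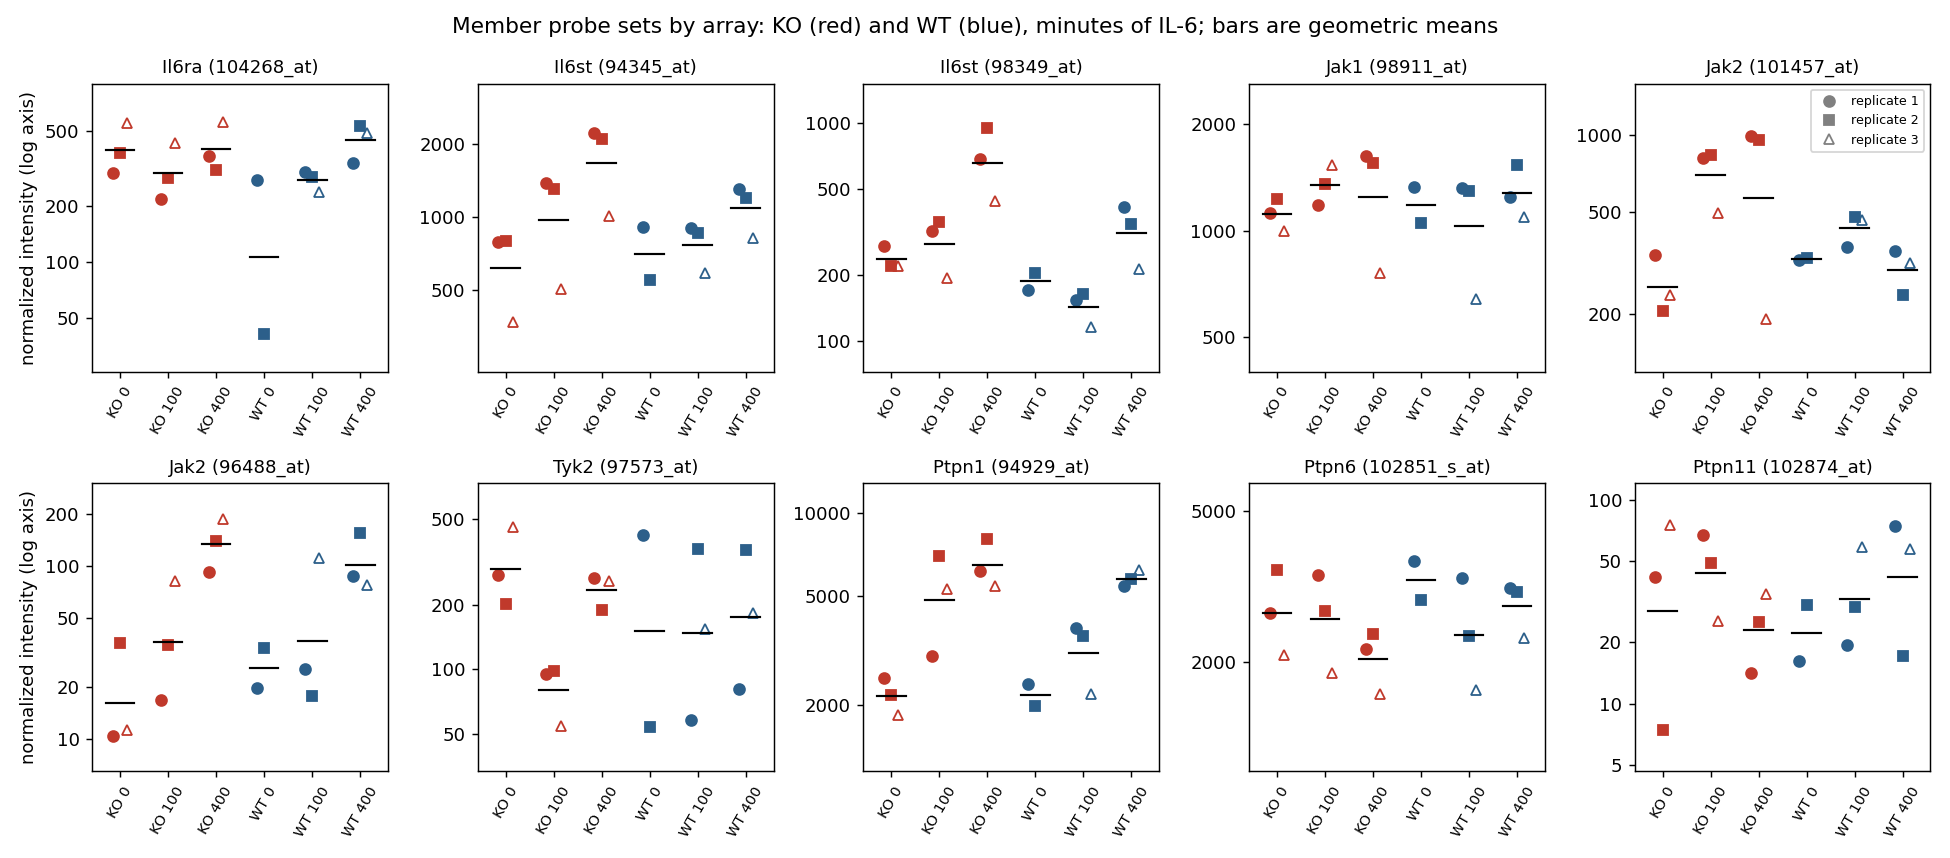
Normalized intensity (log axis, each panel with its own range) of the 10 member probe sets on each of the 17 arrays, KO in red to the left of WT in blue, by minutes of IL-6; symbols give the replicate and bars the geometric mean. Ptpn1 sits between 5424 and 8024 on KO arrays at 400 min and between 1838 and 2508 on KO arrays at 0 min, and replicate 3 lies lowest in every group it belongs to for the Il6st probe set 94345_at.

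The IL-6 receptor, Il6ra, binds the cytokine outside the cell and showed no called difference. It was 299, 382 and 553 in KO cells at 0 min, 218, 282 and 434 at 100 min, and 369.7, 309.9 and 564 at 400 min. WT cells had 274 and 41.2 at 0 min, 305, 283 and 237 at 100 min, and 340.0, 537 and 493 at 400 min. The KO groups overlapped at all times, and 1 WT array, unstimulated replicate 2, stood far below the rest. In KO cells the difference at 400 min was 0.01 (SE 0.54, 95% interval -1.14 to 1.16). In WT cells it was 2.08 (SE 0.60, limma adjusted p = 0.501), and all 3 arrays at 400 min lay above both at 0 min, as did 10.8% of all probe sets. That value rests on the single low array: without it the difference was 0.71, and without the other unstimulated WT array 3.44. In those fits the lone unstimulated WT array is assumed to vary like the other groups, so no p is given for them. KO against WT at 0 min was 1.91 (adjusted p = 0.676), and 0.54 without the low array.

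gp130, which carries the docking sites for STAT3 and SOCS3, has a pair of probe sets on the array. Probe set 98349_at measured 274, 221 and 219.7 in KO cells at 0 min, 318, 352 and 194 at 100 min and 685, 951 and 441 at 400 min. In WT cells it measured 172 and 204 at 0 min, 154, 164 and 115 at 100 min and 414, 343 and 214 at 400 min. All 3 KO arrays at 400 min lay above all other KO arrays and above all WT arrays. The mean was 693 ± 255 in KO cells at 400 min and 238 ± 30.8 at 0 min (SD, n = 3 each), a rise of 1.48 (SE 0.33, limma adjusted p = 0.0396). In WT cells the difference was 0.74 (SE 0.37, 95% interval -0.07 to 1.54), with 324 ± 101 at 400 min (n = 3) and 188 ± 22.7 at 0 min (n = 2). By group mean the order was KO 400 min, WT 400 min (324), KO 100 min (288), KO 0 min (238), WT 0 min (188) and WT 100 min (145). The arrays of WT 400 min and KO 100 min overlapped, as did those of KO 100 and KO 0 min. KO arrays at 0 min lay above WT arrays at 0 min, as for 11.8% of all probe sets, and WT arrays at 100 min lay below those at 0 min, as for 11.3%. The KO call held in 7 of the 17 fits that leave out 1 array, with values of 1.21 to 1.77.

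The second Il6st probe set, 94345_at, measured 789, 797 and 368 in KO cells at 0 min, 1384, 1302 and 505 at 100 min and 2225, 2102 and 1009 at 400 min. WT cells had 907 and 551 at 0 min, 901, 864 and 586 at 100 min and 1312, 1199 and 822 at 400 min. KO arrays at 400 min again lay above all KO arrays at 0 min, and replicate 3 was the lowest array of each group that has one. The KO difference at 400 min was 1.45 (SE 0.45) and was not called (adjusted p = 0.166). With replicate 3 fitted as a batch it was 1.45 (adjusted p = 0.00404), and the other Il6st probe set 1.48 (adjusted p = 0.00249), while 3.36% of all probe sets were called. The WT group at 0 min has no replicate 3 array. In WT cells the difference at 400 min was 0.62 for 94345_at (SE 0.51, limma adjusted p = 0.932). With that batch term the WT difference was 0.94 for 94345_at (adjusted p = 0.323) and 0.94 for 98349_at (adjusted p = 0.277), with 0.0304% of all probe sets called. Over the 17 arrays, which share the normalization, the 2 probe sets correlated at r = 0.78, and at 0.75 as deviations from their group means. Those deviations still hold the replicate 3 difference, which both probe sets share.

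**Figure D2:**
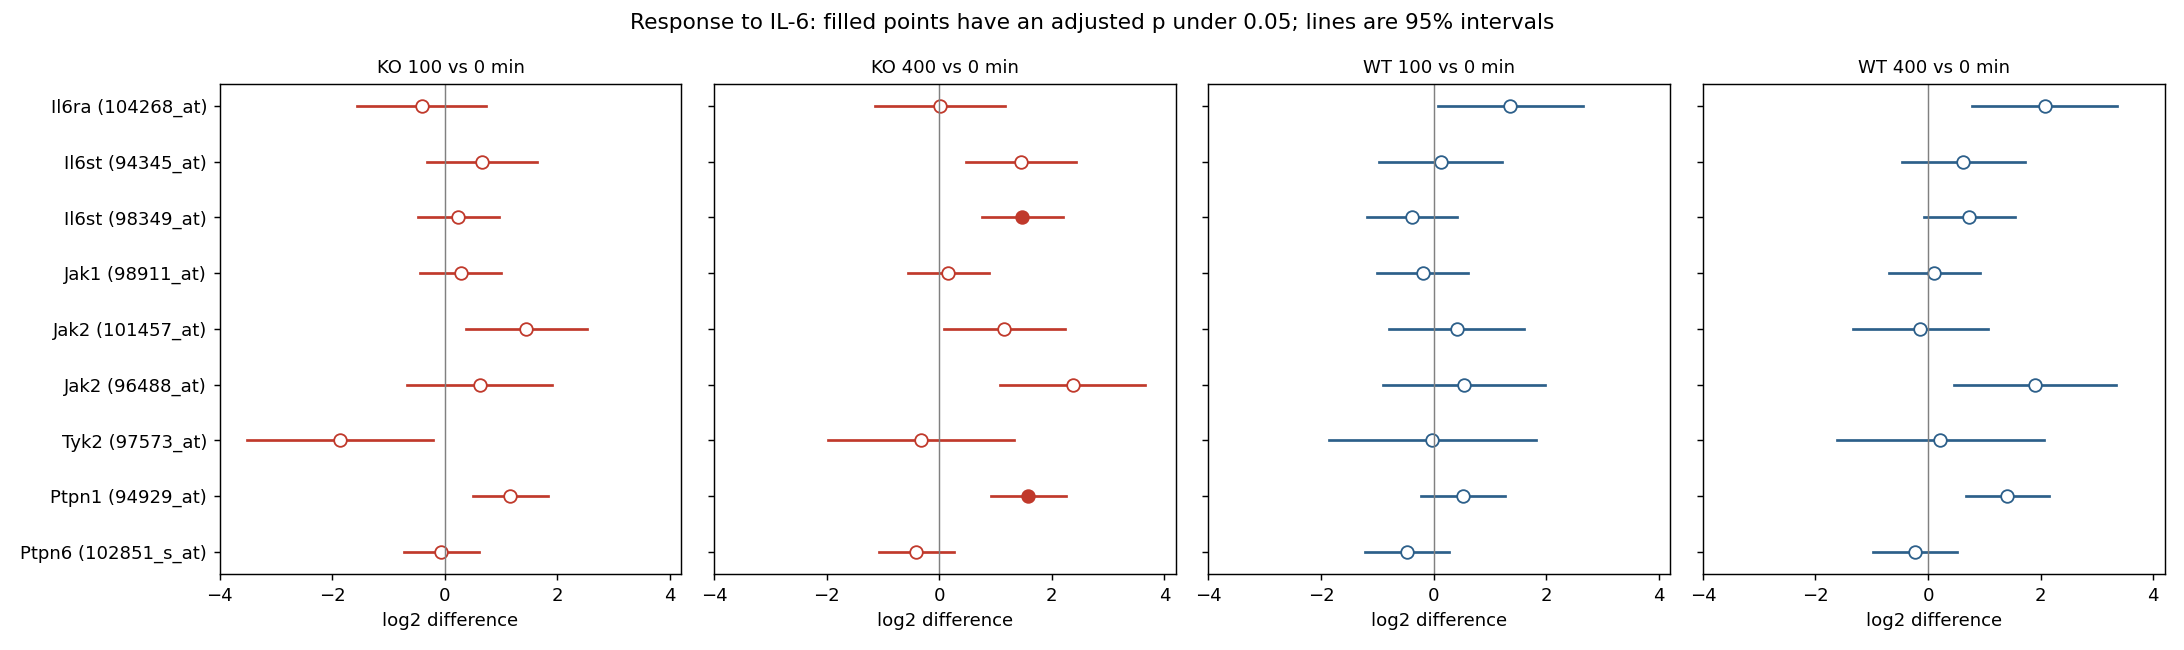
Log2 difference from unstimulated cells (x axis) of the 9 tested member probe sets (y axis) after 100 and 400 min of IL-6 in KO and in WT cells; points are limma estimates, lines 95% intervals and filled points those called at an adjusted p of 0.05. Jak2 96488_at entered only through 400 min arrays, and its values at 400 min are not read as a test. The only filled points are Ptpn1 at 1.58 and Il6st at 1.48 in KO cells at 400 min.

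Jak1, the kinase that gp130 signalling depends on most, showed no called difference. It measured 1126, 1233 and 997 in KO cells at 0 min, 1185, 1354 and 1540.0 at 100 min and 1629.8, 1554 and 763 at 400 min. WT cells had 1333 and 1052 at 0 min, 1324, 1301 and 640.5 at 100 min and 1249, 1532 and 1094 at 400 min. All 6 groups overlapped. Replicate 3 was the lowest array of each group that has one, except KO at 100 min, where it was the highest. Relative to replicates 1 and 2, with groups fitted, it differed by -0.48 (limma adjusted p = 0.134). The KO difference at 400 min was 0.16 (95% interval -0.56 to 0.88), and in WT cells 0.11 (-0.69 to 0.91). The SD over all 17 arrays was 0.36 on the log2 scale, the lowest of the 9.

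Jak2, which several cytokine receptors use, gave different patterns on its 2 probe sets. 101457_at measured 339, 205 and 237 in KO cells at 0 min, 811, 838 and 496 at 100 min and 992, 955 and 191 at 400 min. WT cells had 325 and 331 at 0 min, 367, 478 and 467 at 100 min and 352, 238 and 315 at 400 min. Every KO array at 100 min lay above every KO array at 0 min, as for 5.69% of all probe sets; at 400 min the array labelled replicate 3 was below all of them. The KO differences were 1.45 at 100 min (adjusted p = 0.475) and 1.15 at 400 min (SE 0.50, adjusted p = 0.366). The fit without that array, whose Socs3 level was also unlike that of the other KO arrays, was singled out after the values were seen. It takes away the contrary value, so its adjusted p values are not read as tests. The KO difference at 400 min was then 1.93 (adjusted p = 0.00717, 1.7% of all probe sets called). KO against WT at 400 min was 1.71 (adjusted p = 0.0265, 0.557% called). At 100 min the KO difference stayed at 1.45, and its SE fell from 0.50 to 0.27 (adjusted p = 0.0295, 0.638% called).

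The dim Jak2 probe set, 96488_at, was above its array's 40th percentile only on KO 400 min replicates 2 and 3 and WT 400 min replicate 2, and at the floor on 5 arrays. It measured 10.5, 35.9 and 11.4 in KO cells at 0 min, 16.8, 35.0 and 81.6 at 100 min and 92.6, 139 and 187 at 400 min. WT cells had 19.7 and 33.8 at 0 min, 25.5, 17.8 and 111 at 100 min and 87.8, 155 and 77.3 at 400 min. No difference or p is given, since the filter admitted it through the group where it is high. The correlation of the Jak2 pair over 17 arrays was 0.00.

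Tyk2, a kinase shared with interferon receptors, measured 273, 200.3 and 457 in KO cells at 0 min, 95.2, 98.6 and 54.7 at 100 min and 266, 188 and 257 at 400 min. KO arrays at 100 min lay below all other KO arrays, as did 5.68% of probe sets against 0 min, with a difference of -1.87 (SE 0.77, adjusted p = 0.672). WT cells had 419 and 53.7 at 0 min, 58.2, 361 and 154 at 100 min and 80.9, 360.0 and 183 at 400 min. The WT groups overlapped at all times, and their difference at 400 min was 0.22 (95% interval -1.63 to 2.06).

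Ptpn1, encoding PTP1B, had the lowest adjusted p of the members. KO cells had 2508, 2170.0 and 1838 at 0 min, 3031, 6963 and 5302 at 100 min and 6169.7, 8024 and 5424 at 400 min. WT cells had 2379 and 1991 at 0 min, 3817, 3578 and 2201 at 100 min and 5435, 5747 and 6186 at 400 min. In both genotypes all arrays at 400 min lay above all at 0 min. By group mean the order was KO 400 min (6539), WT 400 min (5789), KO 100 min (5099), WT 100 min (3199), WT 0 min (2185) and KO 0 min (2172), and the arrays of each neighbouring pair overlapped. KO levels averaged 6539 ± 1338 at 400 min and 2172 ± 335 at 0 min (SD, n = 3 each), a rise of 1.58 (SE 0.31, 95% interval 0.92 to 2.25, limma adjusted p = 0.0190). In WT cells the difference was 1.41 (SE 0.35, unadjusted p = 0.00120, adjusted p = 0.339), and at 100 min 1.16 in KO (adjusted p = 0.1999) and 0.51 in WT cells. The KO call held in 13 of 17 fits leaving out 1 array, with adjusted p from 0.00944 to 0.0907. The mean response of the 2 genotypes at 400 min, a comparison added after the data were seen, was 1.496 (SE 0.23, adjusted p = 0.00584), against 1.5% of all probe sets called, and it called Il6st 98349_at too (1.11, adjusted p = 0.0437).

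Ptpn6, encoding SHP1, differed by -0.41 at 400 min in KO cells (95% interval -1.07 to 0.26) and by -0.23 in WT cells, with no call. It measured 2174, 2374 and 1651 in KO cells at 400 min, against 2706, 3494 and 2097 at 0 min, and the groups overlapped. WT cells had 3144, 3058 and 2316 at 400 min, against 3705 and 2923 at 0 min, and these overlapped too. At 100 min the levels were 3398, 2739 and 1878 in KO cells and 3335, 2344 and 1689.6 in WT cells, with replicate 3 lowest in each. Ptpn11, encoding SHP2, was dim on every array, from 7.44 to 75.3 with a median of 30.6, and on no array above its 40th percentile; no difference is given for it.

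**Figure D3:**
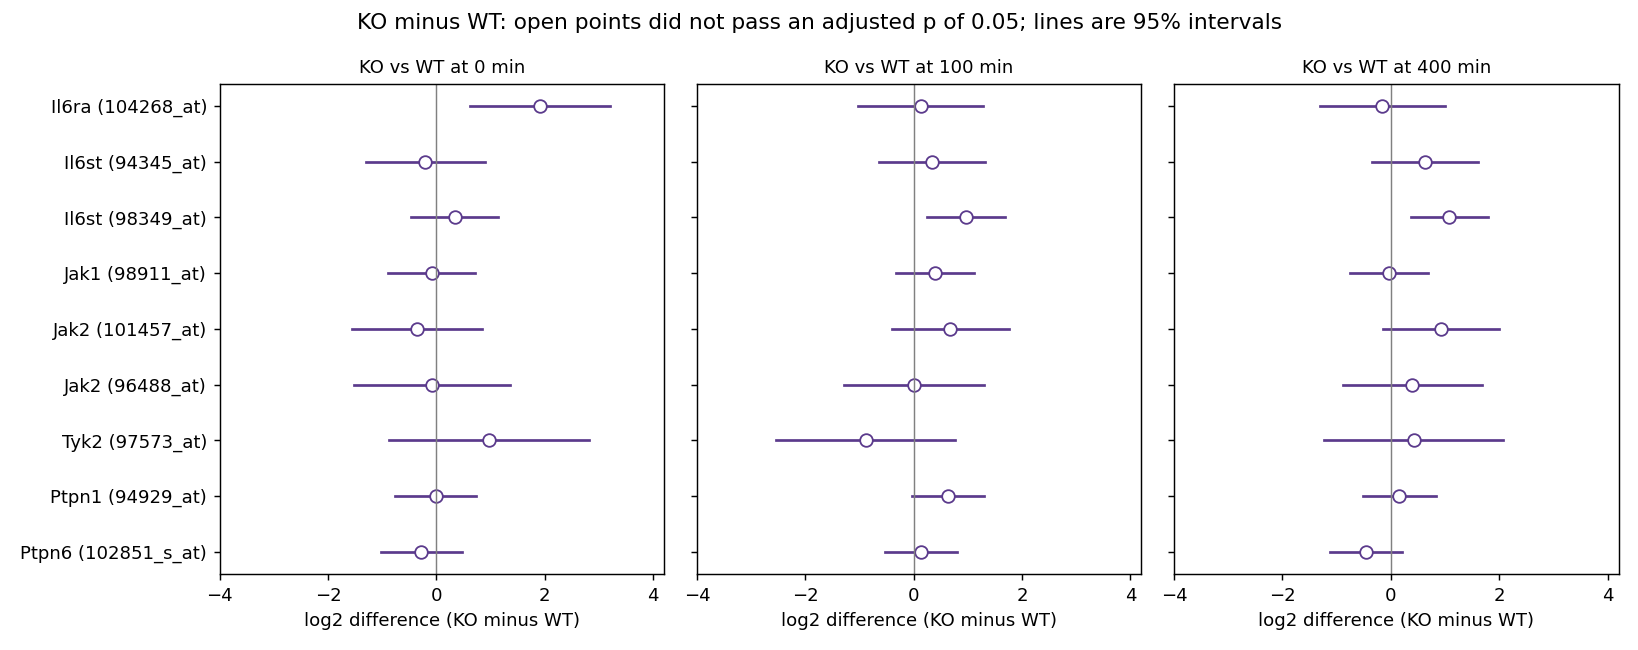
KO minus WT log2 difference (x axis) of the 9 tested member probe sets (y axis) at 0, 100 and 400 min of IL-6; points are limma estimates, lines 95% intervals and open points were not called. Il6st 98349_at is at 1.08 at 400 min, with an interval from 0.36 to 1.80.

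Between genotypes no member was called at any time. Il6st 98349_at had the lowest adjusted p at 400 min: 693 ± 255 in KO and 324 ± 101 in WT cells (SD, n = 3 each), a difference of 1.08 (SE 0.33, adjusted p = 0.276), with all KO arrays above all WT arrays, as for 7.21% of probe sets. With replicate 3 fitted as a batch the difference was 1.08 (adjusted p = 0.0382, 0.861% of all probe sets called), and within replicates 1 and 2 it was 1.10 (adjusted p = 0.0971). Within those replicates Jak2 101457_at was called, at 1.75 (adjusted p = 0.0387, 1.24% of all probe sets called). That fit also lacks KO 400 min replicate 3, the low array of its group for this probe set. Ptpn1 differed by 0.16 (95% interval -0.51 to 0.82), and Jak1 by -0.04 (-0.76 to 0.68). The test of whether the response itself differed between genotypes called no member. The lowest unadjusted p was that of Il6ra, which differed by -2.07 at 400 min (95% interval -3.79 to -0.34, limma adjusted p = 0.842). At 100 min Il6ra differed by -1.78 (-3.51 to -0.05). Both values use the low unstimulated WT array. At 400 min Il6st 98349_at differed by 0.74 (95% interval -0.33 to 1.82), Ptpn1 by 0.17 (-0.83 to 1.17) and Jak2 101457_at by 1.29 (-0.32 to 2.90). Without the array labelled KO 400 min replicate 3 the Jak2 value was 2.07 (adjusted p = 0.213), and within replicates 1 and 2 it was 2.06 (adjusted p = 0.180).

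**Figure D4:**
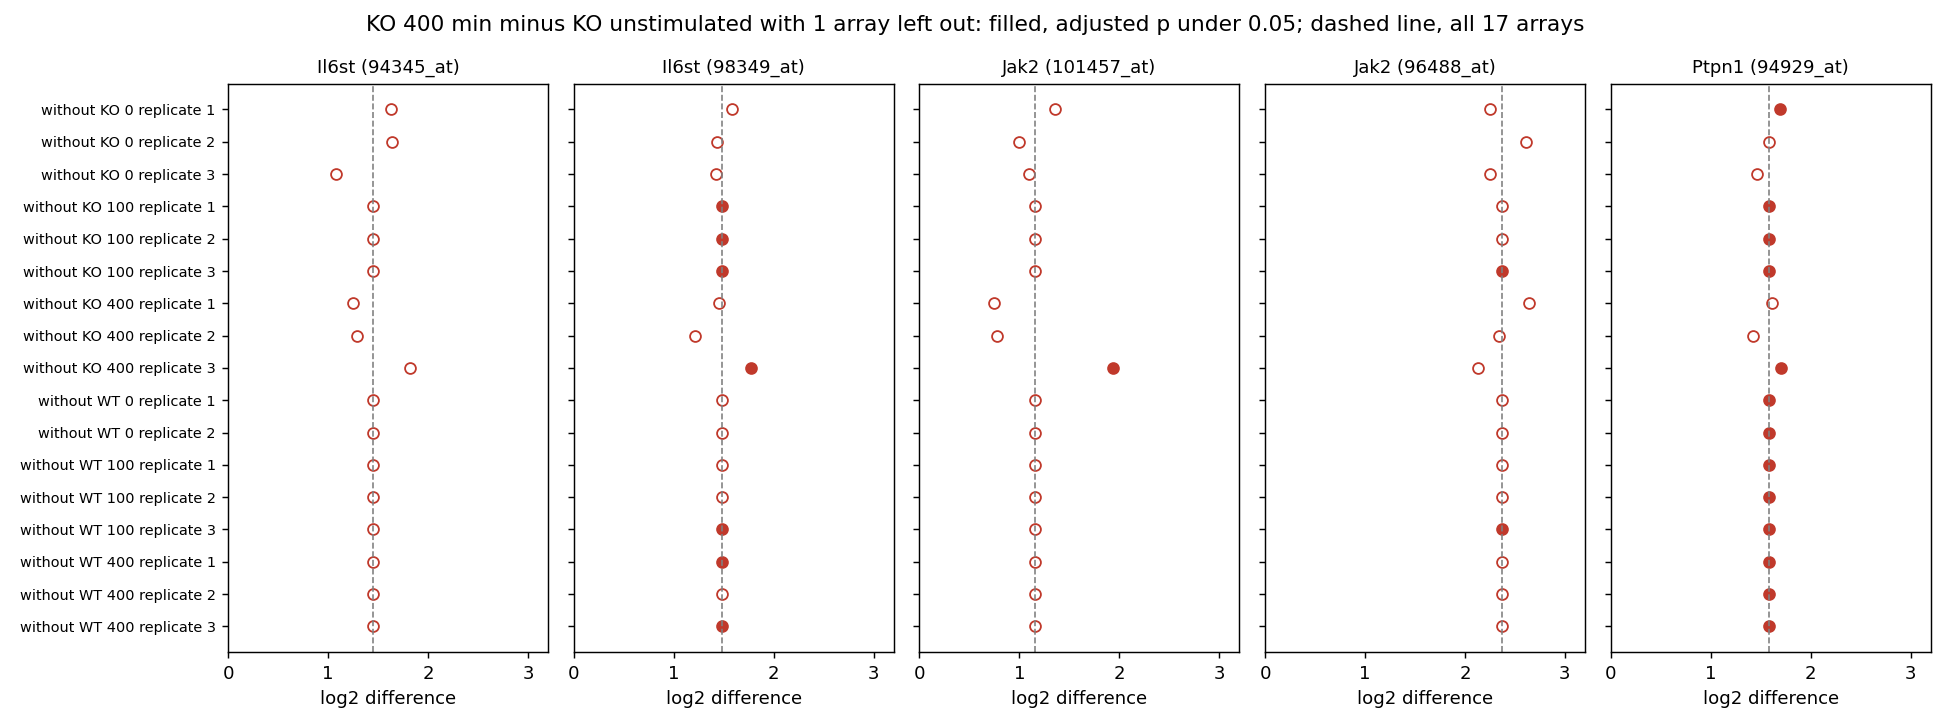
Log2 difference of KO cells at 400 against 0 min (x axis) for the probe sets of Il6st, Jak2 and Ptpn1, a panel each, in fits that leave out the array named on the y axis; filled points were called and the dashed line is the fit to all 17 arrays. Jak2 96488_at entered only through 400 min arrays, so its calls are not read. Ptpn1 stays between 1.42 and 1.71 and Il6st 98349_at between 1.21 and 1.77.

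Replicate 3 arrays differed from the rest for 3 of the 8 member probe sets counted. Relative to replicates 1 and 2, with groups fitted, it differed by -0.96 for Il6st 94345_at (SE 0.15, adjusted p = 0.00476), -0.62 for Il6st 98349_at (adjusted p = 0.0248) and -0.57 for Ptpn6 (adjusted p = 0.0252), while 7.26% of all probe sets differed. The labels do not say what the number stands for. Within replicates 1 and 2 the KO difference at 400 min was 1.71 for Il6st 98349_at (adjusted p = 0.0122), 1.45 for Il6st 94345_at (0.0252), 1.88 for Jak2 101457_at (0.0187) and 1.59 for Ptpn1 (0.0687), with 2.8% of all probe sets called. Within replicate 3 alone, with 1 array a group and no test, it was 1.56 for Ptpn1, 1.01 and 1.45 for the Il6st pair and -0.31 for Jak2 101457_at.

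Of the genes on the array, those whose leading probe set correlated most with Ptpn1 over the 17 arrays were Stat3 (r = 0.90, and 0.98 over the 6 group means) and Slc12a7 (0.89 and 0.96), among 7046 genes compared. As deviations from group means these were lower, at 0.50 for Stat3 and 0.52 for Slc12a7. For Il6st, by its probe set 94345_at, they were Eps8 (0.92) and Lgals8 (0.92), and for Jak2 101457_at Rars (0.88) and Tec (0.86). Their deviations from group means correlated at 0.93, 0.84, 0.80 and 0.87, in that order. Il6ra was most like Tsr1 (0.88) and Ceacam1 (0.88), Jak1 like Mybpc3 (0.83) and Rfng (0.81), Tyk2 like Crb3 (0.80) and Stxbp3 (0.72), and Ptpn6 like Ptgr1 (0.90) and Hexa (0.89). For these pairs the correlation of deviations from group means ran from 0.71 (Stxbp3) to 0.93 (Hexa). These values describe arrays that share a normalization and carry no p. Deviations from group means still hold any replicate 3 difference.

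Around the members, genes of the pathway were read from lists drawn up with earlier results of these data known. In KO cells at 400 min, where 1.82% of all probe sets were called, Stat3, the factor that gp130 activates, rose by 1.37 (adjusted p = 0.0127), 1 of 13 tested STAT, SOCS and PIAS genes. Gab1, an adaptor that binds SHP2, rose by 2.38 (SE 0.35, adjusted p = 0.00362) to 649.6 ± 213, against 120.0 ± 15.04 at 0 min, 1 of 15 tested adaptors and kinases of the RAS-MAPK and PI3K arms. Ptpn22, a phosphatase of lymphoid and myeloid cells, fell by 1.72 (adjusted p = 0.00619), 1 of 18 other phosphatases and JAK regulators. Of 19 receptor chains of other cytokines that use these kinases, 4 rose in KO cells at 400 min: Il4ra by 4.35 (adjusted p = 6.59e-05), Il13ra1 by 3.22 (0.00198), Csf2rb by 3.199 (0.0276) and Csf2rb2 by 1.202 (0.0396). Il4ra also rose in WT cells at 400 min, by 3.58 (adjusted p = 0.00339, 0.0101% of all probe sets called). The other genes named were not called in WT cells, which had 2 unstimulated arrays, but their means moved the same way. From 0 to 400 min, WT means went from 1902 to 3569 for Stat3, 143 to 304 for Gab1 and 800 to 594 for Ptpn22. They went from 27.3 to 116 for Il13ra1, 42.2 to 634 for Csf2rb and 1108 to 1890 for Csf2rb2. None of the 6 tested IL-6 family ligands and receptors was called. Socs1, a feedback inhibitor of JAKs, was higher in KO than WT cells at 400 min by 2.58 (SE 0.46, adjusted p = 0.0336, 0.365% of all probe sets called).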

How the data were processed

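Arrays of 17 samples in 6 groups, assigned by title, were read. From its values, the deposited table holds 1 linear intensity per probe set and array, with names of Affymetrix kind. The authors' software and scaling were not given in the sources used here. From the values, the mean after trimming 2% at each end was close to 500 on all arrays. The deposited intensities were quantile normalized between arrays, values under the 10th percentile (22.0) were raised to it, logs to base 2 were taken, and 66 control probe sets were left out. A probe set entered the tests when 2 or more arrays had it over their own 40th percentile, which left 9871. limma 3.58.1 in R 4.3.3 fitted 1 mean per group to all 17 arrays, with eBayes and Benjamini-Hochberg adjustment over the probe sets tested, in 11 comparisons (11 residual degrees of freedom). The pipeline was tested on simulated data. The number of arrays limits the precision, and no detection calls were given, so signal over background is unknown.

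Genes came from the platform annotation: 10855 probe sets had 1 symbol, 396 several and 1237 none, and 0 symbols changed on update. Named genes are all members, Socs3, the called genes of each pathway list, and the 2 genes most correlated with each member. The rule also took up to 4 genes of lowest p per list, which are not described where they were not called. Marker and sex-linked genes were named after their values were seen. The members and lists were chosen with earlier results of these data known. Alternatives were other normalization, filters and floors, the groups compared only, replicate terms, and leaving out each array. Promoters are from RefSeq. Python 3.11.15, pandas 2.3.3, numpy 2.4.6 and matplotlib 3.10.9 were used.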

Additional observations from a re-analysis of the deposited data

How the results depend on the processing

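Counts of called member probe sets were 2 for KO at 400 against 0 min and 0 in the other 10 comparisons. The first count was 0 with array medians scaled, 1 with no filter, 0 with only the groups compared, 4 with the replicate number as a block (3.09% of all probe sets called) and 4 with replicate 3 as a batch (3.36%), against 1.82% as reported. Both counts of 4 hold Jak2 96488_at, which the filter admitted only through 400 min arrays. All counts in this section include that probe set, and its calls are not read. Leaving out 1 array gave 0 to 3. For KO against WT at 400 min it was 1 with replicate 3 as a batch (0.861% of all probe sets called) and 1 within replicates 1 and 2 (1.24%), against 0.365% as reported. Leaving out 1 array gave 0 to 1 there and for KO at 100 min. For WT at 100 min, WT at 400 min and KO against WT at 0 min, a call arose only without WT 0 min replicate 1. That fit leaves 1 unstimulated WT array, the low one for Il6ra, so its calls are not read. The mean response of both genotypes at 400 min called Ptpn1 and Il6st 98349_at. Jak2 96488_at brought that count to 3, and its call is not read. With that probe set counted, the count fell to 1 without WT 400 min replicate 1 or 2, KO 400 min replicate 2, or KO 0 min replicate 1 or 3. The single calls on leaving out 1 array, for KO at 100 min and KO against WT at 400 min, came without KO 400 min replicate 3. Both were of Jak2 101457_at, for which that array was the low one of its group. The shares of all probe sets called were then 0.638% and 0.557%. Ptpn1 was not called without KO 400 min replicate 1 or 2, or KO 0 min replicate 2 or 3, and Il6st 98349_at was not called without WT 0 min replicate 1 or 2, WT 100 min replicate 1 or 2, WT 400 min replicate 2, KO 0 min replicate 1, 2 or 3, or KO 400 min replicate 1 or 2. Of the 54 alternative values of these 2 calls, 34 kept the call, 20 lost it and 0 changed sign. Over all 2662 alternative values of the 99 member differences, 17 became called, 32 moved by more than the spread, and 36 differences that were not called took the other sign in at least 1 alternative; these totals include Jak2 96488_at. Same-numbered arrays deviated together most for number 3 (10 of 10 pairs over r = 0.1, against 1 of 15 for number 1 and 0 of 15 for number 2). The median r was 0.040 for number 1 and 0.042 for number 2, against -0.041 for different numbers. Of the 17 arrays, 11 correlated best with an array of their own number. Whether the numbers pair the samples cannot be told from these values, and the block is given only here. The cause of these changes was not tested. With 2 or 3 arrays a group, small differences could not be resolved.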
